A study of Saccharomyces cerevisiae with 6 samples.

Results

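The genes described here code for aminoacyl-tRNA synthetases, the enzymes that join each amino acid to its transfer RNA before translation. They were the 31 synthetase genes on a fixed list, each taken from a probe set that the platform annotation gives to exactly 1 gene, among 5449 Saccharomyces cerevisiae genes tested. Of these, 18 code for enzymes of the cytosol and 13 for enzymes of the mitochondrion, and each gene had 1 probe set. Transcripts were measured on 6 Affymetrix yeast arrays, with 3 samples of a strain lacking GCR2 and 3 samples of the wild-type strain FY4. GCR2 codes for an activator of glycolytic genes, and FY4 is a prototrophic laboratory strain. Both strains grew at 30 °C in glucose minimal medium as batch cultures and were collected in exponential phase. The labels give no strain background for the deletion samples and do not say whether replicates came from separate cultures, so the p-values reflect sample-to-sample spread that could be technical.

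Translation in yeast runs in both compartments, and each needs its own charged tRNAs. Most amino acids are served by a pair of nuclear genes, 1 for a cytosolic and 1 for a mitochondrial synthetase, whereas ALA1, GRS1, HTS1 and VAS1 each supply both compartments from alternative start sites. Mitochondrial synthetases charge the tRNAs used to translate the few proteins encoded by mitochondrial DNA, which belong mainly to the respiratory chain and ATP synthase. Synthetases fall into class I and class II by the fold of their catalytic domain.

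GCR2 itself was at 4.69, 4.42 and 4.66 log2 intensity on the deletion arrays, against 11.09, 11.06 and 11.17 on the wild-type arrays. Set against the background level, since all 3 deletion arrays lay under it, the deletion was lower by at least 27.5-fold (limma adjusted p = 1.01e-06). Background was the 95th percentile of probe sets for the other yeast species on the array, and all 31 synthetase genes lay above it on all 6 arrays. Control transcripts differed between the groups as well. Poly-A spike-in controls, added to the RNA, averaged 7.15 ± 0.26 on deletion arrays and 8.06 ± 0.42 on wild-type arrays. The 18S ribosomal RNA controls averaged 12.95 ± 0.15 and the 25S controls 11.94 ± 0.48 on deletion arrays, against 14.10 ± 0.08 and 13.44 ± 0.13 on wild-type arrays (SD, n = 3 each). Their part in the results below was not tested. Each change below is the deletion mean minus the wild-type mean in log2 units, on the deposited scaling of the arrays. Scaling by the poly-A controls instead moved the median change of all genes to 0.94, against 0.02 as reported.

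The called synthetase genes of the cytosol were all higher in the deletion and those of the mitochondrion all lower, by small amounts. Of the 31 genes, 7 (22.6%) passed the test at an adjusted p under 0.05, against 22.5% of all tested genes. All 4 that rose code for cytosolic enzymes (DPS1, ILS1, FRS2 and HTS1), and all 3 that fell code for mitochondrial enzymes (MSM1, MST1 and MSK1). Among cytosolic genes 4 of 18 rose, 0 fell and the other 14 missed the threshold, where 14.1% of all genes rose. Among mitochondrial genes 3 of 13 fell, 0 rose and the other 10 missed the threshold, where 8.35% of all genes fell. At an unadjusted p under 0.05 there were 5 cytosolic and 4 mitochondrial genes, against 38.4% of all genes. Within the signal range of the cytosolic genes 18.9% of 615 genes were called, with 86 higher (14.0%) and 30 lower (4.88%), members included. Within that of the mitochondrial genes 21.4% of 1605 genes were called, with 14.5% higher and 6.92% lower. The share of all 1224 called genes is close to that of the synthetases, so the count of calls by itself does not set them apart.

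**Figure D1:**
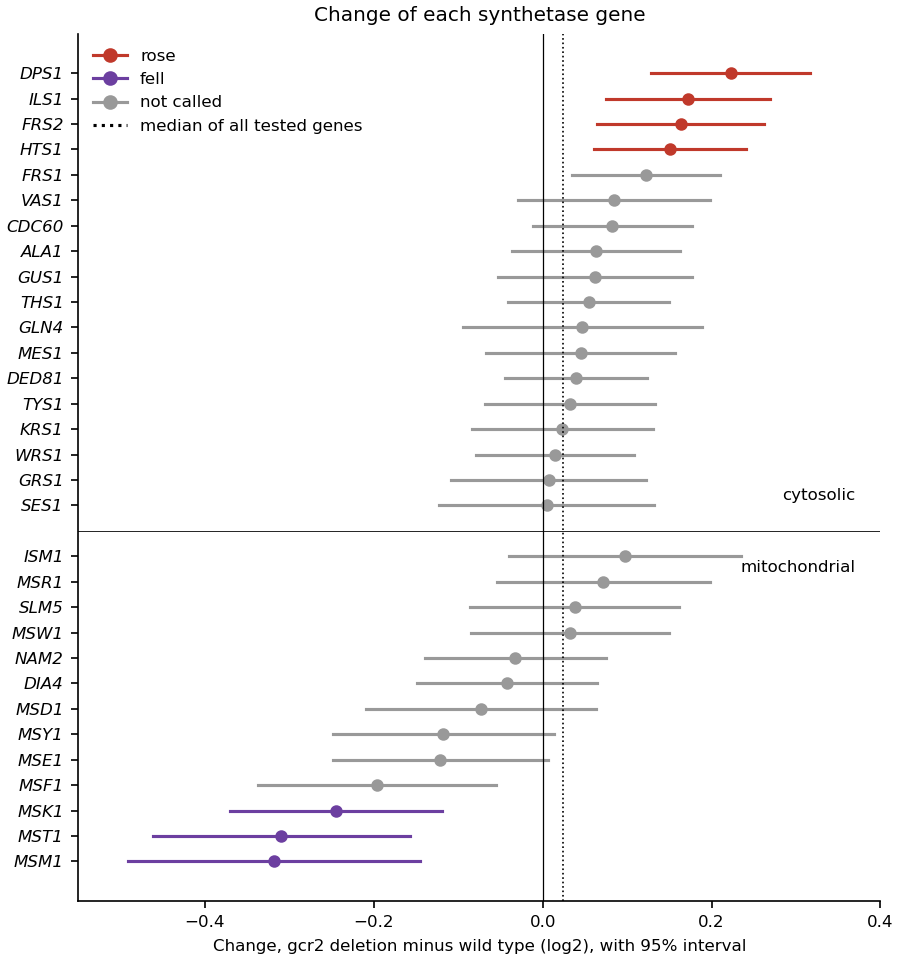
Change of each of the 31 synthetase genes (gcr2 deletion minus wild type, log2), cytosolic enzymes above and mitochondrial enzymes below, each with the 95% interval from limma. The 18 cytosolic genes lie between 0.00 and 0.22, and the mitochondrial genes between -0.32 and 0.10.

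The fitted change was above 0 for all 18 cytosolic genes, with a median of 0.06, whereas 55.5% of all tested genes were above 0 and 39.8% of genes in the same signal range were below it. It was below 0 for 9 of the 13 mitochondrial genes, with a median of -0.07, against 44.5% of all genes and 43.4% of those in the same signal range. Median changes of all genes in the cytosolic and mitochondrial signal ranges were 0.04 and 0.03. The count for the cytosolic genes depended on scaling. With quantile normalization over the tested genes 12 of 18 were above 0 and 11 of 13 mitochondrial genes were below 0, and with centring on the poly-A controls all 31 were above 0. The medians stayed on either side of the all-gene median in each of the settings tried, at 0.03 for cytosolic and -0.10 for mitochondrial genes with quantile normalization, and at 0.97 and 0.84 around 0.94 with poly-A centring.

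Among the cytosolic enzymes, the aspartyl-tRNA synthetase gene DPS1 showed the largest change. It was at 13.71, 13.77 and 13.73 on deletion arrays, against 13.51, 13.54 and 13.50 on wild-type arrays. The groups did not overlap, as for 45.2% of all tested genes, and the change was 0.22 (SE 0.04, limma adjusted p = 0.0138), or 1.17-fold. The call was kept in 12 of 16 alternative settings, or 11 of the 15 other than poly-A centring, which called all 18 cytosolic genes. It was lost without deletion replicate 2 (adjusted p = 0.0523) or deletion replicate 3 (0.0683).

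ILS1, for the isoleucyl enzyme, was at 13.81, 13.87 and 13.81 on deletion arrays, against 13.63, 13.66 and 13.69 on wild-type arrays. All deletion arrays were higher, by 0.17 on average (SE 0.04, limma adjusted p = 0.0294). HTS1, the histidyl gene that serves both compartments, was at 13.68 on each deletion array, against 13.51, 13.51 and 13.56 on wild-type arrays. Its change was 0.15 (SE 0.04, limma adjusted p = 0.0343). FRS2 and FRS1 code for the alpha and beta subunits of the cytosolic phenylalanyl enzyme. FRS2 was at 13.29, 13.26 and 13.27 on deletion arrays, against 13.15, 13.13 and 13.06 on wild-type arrays, a change of 0.16 (limma adjusted p = 0.0359). FRS1 was at 13.59, 13.60 and 13.58 on deletion arrays, against 13.46, 13.45 and 13.50 on wild-type arrays, a difference of 0.12 that did not pass (limma adjusted p = 0.0573). Both subunit genes were thus higher on every deletion array than on any wild-type array.

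These smaller calls were less stable than that of DPS1. ILS1 and HTS1 were each called in 5 of the 15 alternatives other than poly-A centring. Both calls were lost without any one of the 3 deletion replicates or of wild-type replicates 1 and 2. FRS2 was called in 4 of those 15 and lost when any single array was left out. FRS1 gained a call in 3, with array weights, with a trended robust prior and with poly-A centring. Dropping dim probe sets and averaging probe sets left the values of all 31 synthetase genes as they were. Calls kept in those settings therefore say little about stability. Among array removals and rescalings other than poly-A centring, ILS1 and HTS1 kept their calls only without wild-type replicate 3.

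The other 13 cytosolic genes did not pass. Non-overlapping values were also found for CDC60, the leucyl enzyme, at 13.62, 13.67 and 13.62 on deletion arrays against 13.52, 13.57 and 13.58 on wild-type arrays (change 0.08). THS1, the threonyl enzyme, was at 14.16, 14.19 and 14.18 on deletion arrays, against 14.08, 14.13 and 14.16 on wild-type arrays (change 0.05). DED81, the asparaginyl enzyme, was at 13.96, 13.96 and 13.95 on deletion arrays, against 13.91, 13.93 and 13.91 on wild-type arrays (change 0.04). In all, 8 of 18 cytosolic genes had higher, non-overlapping values on deletion arrays, as had 27.1% of all genes. In the same signal range 200 of 615 genes did.

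The remaining 10 cytosolic genes had overlapping groups. Of the other genes that serve both compartments, VAS1 (valyl) averaged 13.66 ± 0.05 on deletion arrays and 13.58 ± 0.05 on wild-type arrays (SD, n = 3 each). ALA1 (alanyl) averaged 13.63 ± 0.03 on deletion arrays and 13.57 ± 0.03 on wild-type arrays, and GRS1 (glycyl) 13.78 ± 0.03 on deletion arrays and 13.77 ± 0.07 on wild-type arrays. Differences for the rest of these genes were 0.06 for GUS1 (glutamyl), 0.05 for GLN4 (glutaminyl), 0.05 for MES1 (methionyl) and 0.03 for TYS1 (tyrosyl). They were 0.02 for KRS1 (lysyl), 0.01 for WRS1 (tryptophanyl) and 0.005 for SES1 (seryl). The 95% intervals of the 14 cytosolic genes that did not pass lay between -0.12 and 0.21, on the log2 scale.

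**Figure D2:**
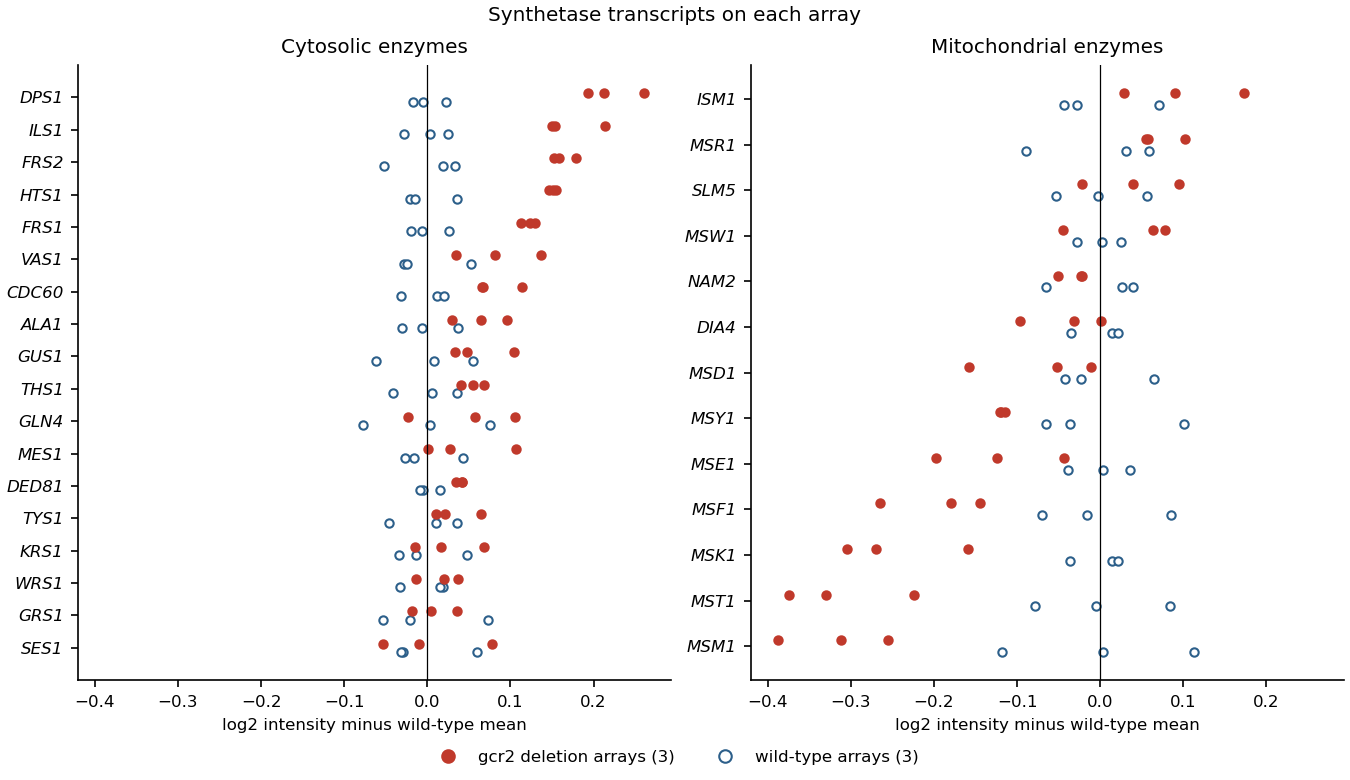
log2 intensity of each synthetase gene on each array, minus that gene's wild-type mean, for the 3 gcr2 deletion arrays (filled) and the 3 wild-type arrays (open). Deletion points of DPS1, ILS1, FRS2, HTS1 and FRS1 lie right of all wild-type points, and those of MSM1, MST1, MSK1 and MSF1 lie left of them.

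Deletion replicate 2 was most often the highest array among the cytosolic genes. It gave the highest of the 6 values for 16 of 18 genes, and wild-type replicate 1 gave the lowest for 10. Such shares over all genes were not computed, here or for the mitochondrial genes below. Nothing particular to the synthetase genes can therefore be read from these counts. Averaged over the 18 genes, the deviation from the wild-type mean was 0.06, 0.11 and 0.07 on deletion arrays, against -0.03, -0.003 and 0.03 on wild-type arrays. Over all genes, limma calls fell from 1224 to 483, 543 and 406 without deletion replicate 1, 2 or 3. They numbered 786 without wild-type replicate 1 and 1225 without wild-type replicate 2. Without deletion replicate 2 the median change of the cytosolic genes was 0.04, with 16 of 18 above 0 and 0 called by limma. Without wild-type replicate 1 it was 0.04, with 15 above 0 and 1 called. Limma called 0 cytosolic genes without deletion replicate 3 and 1 without deletion replicate 1 or wild-type replicate 2. For the mitochondrial genes the average deviation was -0.13, -0.10 and -0.05 on deletion arrays, against 0.01, 0.01 and -0.01 on wild-type arrays. Deletion replicate 1 gave the lowest value for 7 of the 13, and without it their median change was -0.08, with 0 called by limma. Limma called 1 without deletion replicate 2 or 3 or wild-type replicate 1, and 2 without wild-type replicate 2.

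Among the mitochondrial enzymes, the methionyl gene MSM1 and the threonyl gene MST1 fell most. Mst1 is known for charging threonine tRNAs that include the one reading leucine-type codons, a feature of the yeast mitochondrial code. MSM1 was at 10.04, 10.17 and 10.11 on deletion arrays, against 10.31, 10.43 and 10.54 on wild-type arrays, and fell by 0.32 (SE 0.07, limma adjusted p = 0.0267). MST1 was at 10.63, 10.78 and 10.67 on deletion arrays, against 11.00, 10.93 and 11.09 on wild-type arrays, and fell by 0.31 (SE 0.06, limma adjusted p = 0.0207). MSM1 was thus 1.25-fold and MST1 1.24-fold lower, with no overlap between the groups.

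MSK1, the lysyl enzyme, whose precursor also takes part in the import of a cytosolic lysine tRNA into mitochondria, was at 10.96, 10.93 and 11.07 on deletion arrays, against 11.25, 11.25 and 11.20 on wild-type arrays. It fell by 0.24 (SE 0.05, limma adjusted p = 0.0229). MSK1 was called as lower in 9 of the 15 alternatives other than poly-A centring, as were MSM1 and MST1. MSM1 lost its call without any one deletion replicate or without wild-type replicate 2, MST1 without deletion replicate 1 or 3 or wild-type replicate 1, and MSK1 without deletion replicate 1 or 2 or wild-type replicate 1. Relative to the shifted median of all genes, poly-A centring left these genes at -0.34 (MSM1), -0.33 (MST1) and -0.27 (MSK1).

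MSF1, MSE1 and MSY1 had lower, non-overlapping values on deletion arrays but did not pass. MSF1, the phenylalanyl enzyme, was at 9.81, 9.90 and 9.93 on deletion arrays, against 10.06, 10.16 and 10.01 on wild-type arrays, a difference of -0.20 (limma adjusted p = 0.0574). MSE1, the glutamyl enzyme, was at 10.19, 10.27 and 10.35 on deletion arrays, against 10.35, 10.43 and 10.39 on wild-type arrays (difference -0.12). MSY1, the tyrosyl enzyme, was at 10.02, 10.02 and 10.03 on deletion arrays, against 10.24, 10.08 and 10.11 on wild-type arrays (difference -0.12). With the 3 called genes, 6 of 13 mitochondrial genes had lower, non-overlapping values, as had 18.1% of all genes. In the same signal range 252 of 1605 genes did. MSF1 was called under median centring (adjusted p = 0.038), quantile normalization (0.0133) and array weights (0.0455), each time as lower.

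Differences were small for the other mitochondrial genes, whose groups overlapped. They were -0.07 for MSD1 (aspartyl), -0.04 for DIA4 (seryl) and -0.03 for NAM2. Nam2 is the leucyl enzyme and also a splicing factor for mitochondrial introns. Values above 0 were found for MSW1 (tryptophanyl, 0.03), SLM5 (asparaginyl, 0.04), MSR1 (arginyl, 0.07) and ISM1 (isoleucyl, 0.10). The 95% intervals of the 10 genes that did not pass lay between -0.34 and 0.23.

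Comparing the enzymes for the same amino acid gave 13 pairings over 12 amino acids among the 31 genes, since FRS1 and FRS2 were both set against MSF1. In 10 of them the cytosolic gene had a change above 0 and the mitochondrial gene one below 0. Since all 18 cytosolic changes were above 0, this count only repeats the 9 mitochondrial genes below 0, with MSF1 counted for both FRS genes. A shift of a whole array cancels in the difference of the 2 changes, so that centring does not move it. That difference was 0.36 for THS1 and MST1 (SE 0.06), 0.36 for MES1 and MSM1 (SE 0.05), and 0.36 for FRS2 and MSF1 (SE 0.06; 0.32 with FRS1). It was 0.30 for DPS1 and MSD1, where the cytosolic gene accounted for most of it, and 0.27 for KRS1 and MSK1, where the mitochondrial gene did. GUS1 and MSE1 differed by 0.18, TYS1 and MSY1 by 0.15 and CDC60 and NAM2 by 0.11.

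In these 9 pairings the 3 deletion arrays had a larger cytosolic-minus-mitochondrial difference than any wild-type array. The two-sided exact permutation p was 0.1 for each, which is the smallest that 3 against 3 arrays allow. No such separation was seen for ILS1 and ISM1 (0.07, exact permutation p = 0.4), SES1 and DIA4 (0.05, 0.4), DED81 and SLM5 (0.002, 1) or WRS1 and MSW1 (-0.02, 0.8). The isoleucyl pair was the one in which a called cytosolic gene stood beside a mitochondrial gene above 0. Over 15 alternative settings the difference for each of the 9 pairings remained above 0, with the lowest value at 0.08 for TYS1 and MSY1. Median and poly-A centring, the replicate block, removal of dim probe sets, averaged probe sets and the trended prior cannot move these differences. Only array removal, quantile normalization and array weights could. Single genes did not overlap between the groups in 45.2% of cases, and the corresponding share for differences between other pairs of genes was not computed, so nothing particular to these enzymes can be read from the 9.

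The enzymes for 2 further amino acids were measured with cytosolic genes outside the list of 31. For arginine, YDR341C differed by 0.11 and MSR1 by 0.07 between the strains, which leaves 0.04 (exact permutation p = 0.7, -0.003 to 0.10 over the same settings). For proline, YHR020W differed by 0.02 and its mitochondrial counterpart AIM10 by 0.03, which leaves -0.01 (exact permutation p = 1, -0.07 to 0.10). In both pairs the 2 changes lay above 0 and the groups overlapped. With them, 10 of 15 pairings over 14 amino acids had opposite signs and 9 did not overlap. The count of opposite signs again follows from the signs of the mitochondrial changes, since every cytosolic change was above 0.

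**Figure D3:**
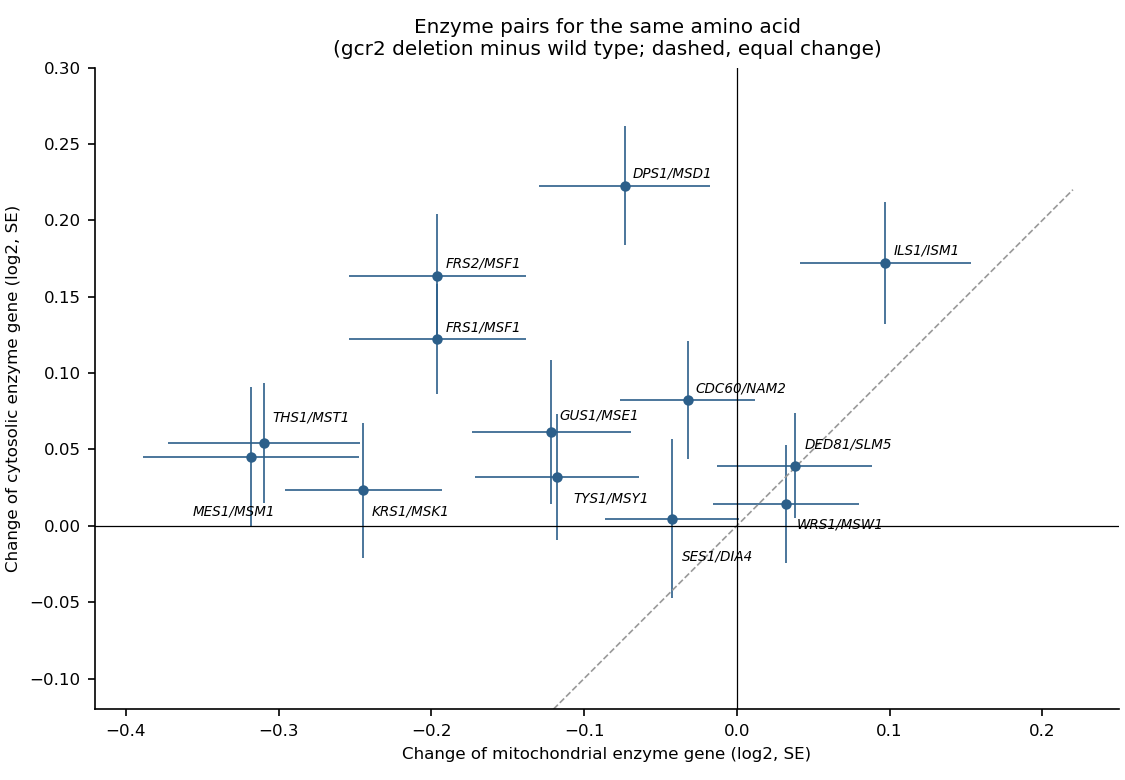
Change of the cytosolic enzyme gene against that of the mitochondrial enzyme gene for the same amino acid (gcr2 deletion minus wild type, log2; bars are limma's SE), for 13 pairings. In 10 pairings the point lies left of 0 and above 0, farthest left for MES1/MSM1 and THS1/MST1; WRS1/MSW1 and DED81/SLM5 lie near the dashed line of equal change.

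Both enzyme classes held called genes in each compartment. Among cytosolic genes 1 of 8 of class I and 3 of 10 of class II rose, with medians of 0.05 and 0.06. Among mitochondrial genes 1 of 7 of class I and 2 of 6 of class II fell, with medians of -0.03 and -0.13. Among all genes 14.1% rose and 8.35% fell, and with 1 to 3 calls in each class nothing can be read from these counts.

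Other synthetase genes outside the list gave values of the same size, with 1 exception. YDR341C (arginyl) differed by 0.11 (limma adjusted p = 0.0884), YHR020W (prolyl), the chromosomal neighbour of DED81, by 0.02 and the mitochondrial prolyl gene AIM10 by 0.03. GRS2, a second glycyl synthetase gene and a paralog of GRS1, was at 10.72, 10.63 and 10.62 on deletion arrays, against 10.33, 10.35 and 10.21 on wild-type arrays. It rose by 0.36 (SE 0.05, limma adjusted p = 0.00913), while GRS1 differed by 0.01. The GRS2 call was lost in 1 of 16 alternatives, when wild-type replicate 3 and deletion replicate 1 were both left out (adjusted p = 0.0512).

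Cofactors of charging showed no common direction. ARC1, whose product binds the methionyl and glutamyl enzymes of the cytosol, differed by 0.08, with overlapping groups. The mitochondrial amidotransferase turns glutamate into glutamine on the mitochondrial glutamine tRNA. Of its 3 subunit genes PET112 rose by 0.23 (limma adjusted p = 0.0225), to 9.17, 9.23 and 9.24 on deletion arrays, against 8.94, 8.96 and 9.06 on wild-type arrays, whereas HER2 differed by -0.09 and GTF1 by 0.15. PET112 was called as higher in 8 of the 15 alternatives other than poly-A centring. FMT1 and DTD1 did not pass.

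Among 9 genes for tRNA maturation and export, TRZ1, for the nuclease that trims the 3′ end of tRNA precursors, fell by 0.41 (SE 0.09, limma adjusted p = 0.0251). SEN2, for a subunit of the tRNA splicing endonuclease, rose by 0.18 (limma adjusted p = 0.0403). The other 7, among them CCA1 and LOS1, missed the threshold. With 22.2% of the list called, against 22.5% of all genes, the count does not set this list apart. The median of the 9 was -0.07. TRZ1 was called as lower in 8 of the 15 alternatives other than poly-A centring, and SEN2 as higher in 7 of those 15.

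Genes for translation factors, which act on the charged tRNAs or the ribosome, were read in both compartments. Of 7 measured genes for cytosolic elongation factors 0 were called by limma (1 at an unadjusted p under 0.05), with a median of 0.04 and values between -0.02 and 0.10, CAM1 being the highest. With 22.5% of all genes called, 0 of 7 does not set this list apart. TEF2 and EFT2 were read on probe sets that can bind the transcripts of their near-identical copies. Of 6 mitochondrial translation factor genes 3 fell (50.0%), 0 rose and 3 missed the threshold, where 8.35% of all genes fell. The difference between the lists was not tested. Their median was -0.14. MEF1, mitochondrial elongation factor G, was at 11.41, 11.43 and 11.45 on deletion arrays, against 11.83 on each wild-type array, and fell by 0.40 (SE 0.04, limma adjusted p = 0.00175). It was called as lower in all 15 alternatives other than poly-A centring. IFM1, the initiation factor, fell by 0.30 (limma adjusted p = 0.0327), and TUF1, the elongation factor that carries charged tRNAs to the ribosome, fell by 0.19 (limma adjusted p = 0.0222). IFM1 and TUF1 were each called as lower in 8 of those 15. MEF2, MRF1 and RRF1 differed by 0.06, 0.00 and -0.08.

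The genes that sense uncharged tRNA did not pass. GCN2, the kinase that binds uncharged tRNA, differed by -0.02, its partners GCN1 and GCN20 by 0.08 and 0.07, and GCN4, the activator of amino acid biosynthesis genes downstream, by -0.03. GCN4 is regulated mainly in translation, which these arrays do not measure.

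**Figure D4:**
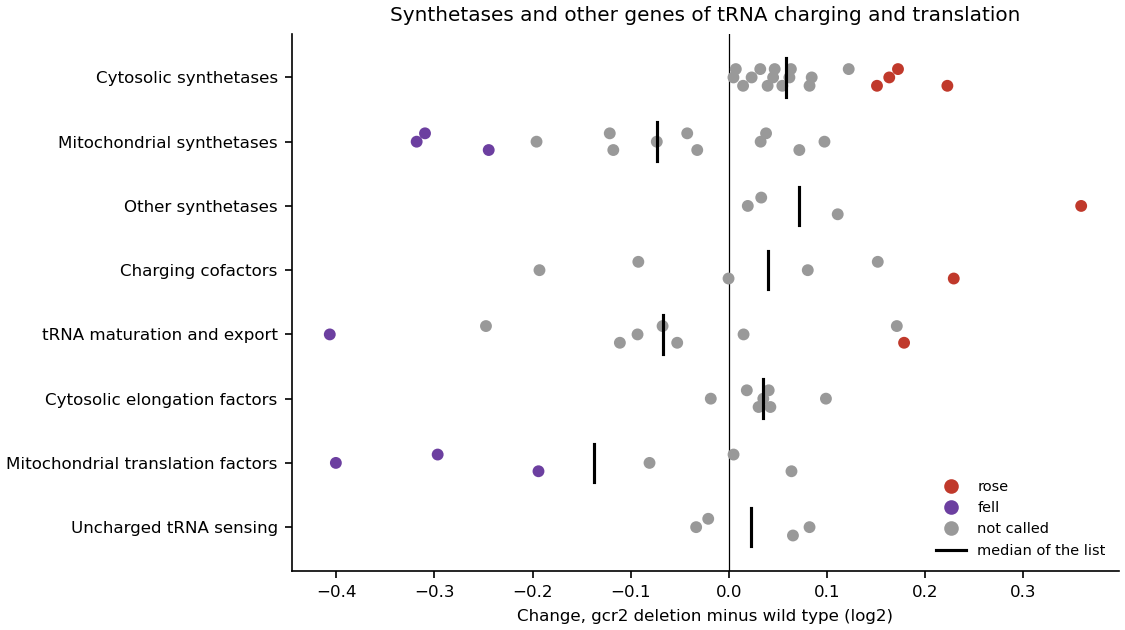
Change (gcr2 deletion minus wild type, log2) of every measured gene in the 2 synthetase groups and in 6 lists of other charging and translation genes, with each list's median as a black bar. The largest rise is GRS2 at 0.36 among the other synthetases, and the largest falls are TRZ1 at -0.41 and MEF1 at -0.40.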

How the data were processed

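The authors deposited 1 table of probe-set intensity values on a linear scale for 10928 probe sets on 6 arrays. The submitters' processing notes name R 2.8.0, affy and RMA. RMA as usually run gives all arrays 1 distribution, so a change in total messenger RNA would not be seen. The sources used here do not give a genome build. Log2 of each deposited intensity was taken here, without further scaling. Probe sets annotated to 1 gene (7244) were matched to RefSeq R64 names, which 5498 did, keeping the brightest per gene, with no filter on dim genes. Deletion and wild-type arrays were compared with limma 3.58.1 (lmFit, eBayes) in R 4.3.3, two-sided, with Benjamini-Hochberg adjustment over 5449 genes; "rose" and "fell" mean an adjusted p under 0.05. Lists are described by counts and medians, without set tests. The procedure was tested on simulated data, with recovery of calls required only for changes far larger than those of the synthetase genes. Precision is set by the 6 arrays: the 95% interval reached to either side of the change by a median of 0.10 for cytosolic and 0.13 for mitochondrial synthetase genes. All 31 synthetase genes are named, with the called and the first-listed members of the other lists. Further list members were named after their values were seen. The members and lists were chosen with earlier results of these data known. Alternatives were the replicate number as a block, each array left out, 2 arrays left out together, 3 other scalings, removal of dim probe sets, averaged probe sets, array weights, a trended robust prior and an adjusted p under 0.01. No sequences are shown.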

Additional observations from a re-analysis of the deposited data

How the results depend on the processing

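Over 16 alternative settings, 410 results for single synthetase genes kept their side of the threshold, 53 lost a call and 24 gained one. Another 9 changed sign where either value was called. Dropping dim probe sets and averaging probe sets left the values of these genes unchanged, so results kept there say little about stability. Those 9 came with centring on the poly-A controls, which moved the median of all genes to 0.94; small uncalled changes near 0 also crossed it elsewhere, as the counts by scaling show. The values were MSD1 (0.84), MSE1 (0.79), MSF1 (0.72), MSK1 (0.67), MSM1 (0.59), MST1 (0.60), MSY1 (0.79), NAM2 (0.88) and DIA4 (0.87), and of the other genes HER2 (0.82), FMT1 (0.91), DTD1 (0.72), CCA1 (0.80), LOS1 (0.86), TRZ1 (0.50), TRL1 (0.82), SEN34 (0.66), SEN54 (0.84), HYP2 (0.89), TUF1 (0.72), MEF1 (0.51), IFM1 (0.61), RRF1 (0.83), GCN2 (0.89) and GCN4 (0.88). The cause was not tested. In that setting limma called 4967 genes, 18 cytosolic and 11 mitochondrial synthetase genes, with medians of 0.97 and 0.84.

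Leaving out 1 array gave 406 to 1225 called genes, 0 to 3 cytosolic and 0 to 3 mitochondrial ones; with deletion replicate 1, 2 or 3 left out the totals were 483, 543 and 406, and without wild-type replicate 1 the total was 786, against 1224 with all arrays. The medians then lay between 0.04 and 0.08 for cytosolic and between -0.10 and -0.05 for mitochondrial genes. Leaving out wild-type replicate 3 together with deletion replicate 1, limma called 328 genes and 0 synthetase genes, with a cytosolic median of 0.0939. At an adjusted p under 0.01 it called 347 genes and 0 synthetase genes. Median centring left 1 cytosolic call and 4 mitochondrial ones, with 1076 genes called in all. Quantile normalization left 1 and 4, with 1055 genes called and a cytosolic median of 0.0279. Array weights gave 5 and 5, with 1807 genes called. For these settings too the cause was not tested.

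With the replicate number as a block 733 genes were called, 1 cytosolic and 1 mitochondrial synthetase gene (DPS1 and MSM1). The labels do not say whether the numbers pair the samples. Deviations of same-numbered samples correlated at 0.53, -0.17 and -0.44. Because deviations from a group mean cancel within the group, every array must have matches of both signs. The correlations therefore cannot decide whether samples pair. Deletion replicate 1 correlated best with wild-type replicate 1 (0.53), deletion replicate 2 with wild-type replicate 3 (0.58) and deletion replicate 3 with wild-type replicate 2 (0.49). A block by this matching was not fitted, and its cause was not tested.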

Other observations

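The 7 called synthetase genes had 14 measured chromosomal neighbours, 1 gene on each side. Of these neighbours 1 was called in the same direction as the synthetase gene, 5 in the opposite direction and 8 were not called, where 22.5% of all genes were called. The same-direction neighbour was SRO7, beside HTS1, which rose by 0.19. MSM1, which fell, lay between PSD2 and YIP1, which rose by 0.21 and 0.19. FRS2, which rose, lay beside GAT1, for an activator of nitrogen-regulated genes, which fell by 0.42. These neighbours are named after their values were seen.

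Control probe sets at the 3′ and 5′ ends of 8 yeast transcripts were compared as a measure of RNA integrity. The change at the 3′ end minus that at the 5′ end ranged from -0.09 to 0.11, with a median of -0.05, and was above 0 for 3 of the 8.

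Mating-type markers were read in the same arrays. STE3, the receptor gene of mating type alpha, was at 8.51, 8.41 and 8.39 on deletion arrays, against 7.57, 7.46 and 7.55 on wild-type arrays. It rose by 0.91, or 1.88-fold (limma adjusted p = 0.000503). STE3 was dim, at percentile 6.5 of mean signal among the tested genes. MFALPHA1, also listed for mating type alpha, had no probe set annotated to exactly 1 gene. Of the 3 markers of mating type a, BAR1 rose by 0.22 (limma adjusted p = 0.0339), while STE2 differed by 0.07 and MFA1 by 0.01, with overlapping groups. STE2 was bright in both strains, averaging 14.23 on deletion arrays and 14.16 on wild-type arrays. Their part in the synthetase results was not tested.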
